A study of Mus musculus with 12 samples.

Results

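The nuclear genes that encode the subunits of the mitochondrial respiratory chain and of the ATP synthase were examined in mouse colonoids, 3-dimensional cultures of colon epithelium. Every gene symbol beginning Nduf followed by a, b, c, s or v, Sdh followed by a to d, Uqcr, Cox4 to Cox8, or Atp5 was taken, which gave 94 of the 35869 symbols in the count table. They comprised 36 genes of complex I, 7 assembly factors of complex I (Ndufaf1 to Ndufaf7), 4 of complex II, 8 of complex III, 20 of complex IV and 15 of the ATP synthase. Ndufa4 and its relative Ndufa4l2 were placed with complex IV, where NDUFA4 is now known to belong. The other 4 carry such a name without being a subunit gene in this mouse annotation. Atp5sl, also called Dmac2, encodes a protein described in human cells as an assembly factor of complex I. Atp5s encodes factor B, a protein associated with the ATP synthase, and Atp5c1-ps and Uqcrh-ps1 are pseudogenes.

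The colonoids came from C57BL/6 mice, whose age the labels do not give, and were grown in Matrigel with EGF at 50 ng/mL and 20% L-WRN conditioned medium, which supplies the growth factors that keep colon stem cells dividing. The 4 groups were unstimulated colonoids, colonoids given IL-22 at 1 ng/mL, colonoids given IL-1b at 100 ng/mL, and colonoids given both at those doses, each cytokine group for 12 h. The labels give no time for the unstimulated colonoids. Each group had 3 libraries of polyadenylated RNA. Whether the 3 libraries of a group came from different mice or different wells is not in the labels, and the p-values reflect only the scatter among these libraries, which may be technical. Colonoids are a model of the epithelium, and counts of leukocyte and other markers in these libraries are given below.

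The respiratory chain passes electrons from NADH (complex I) and succinate (complex II) through complexes III and IV to oxygen and pumps protons across the inner mitochondrial membrane. The ATP synthase uses the returning protons to make ATP. Colonocytes are known for a strong reliance on this route, since they burn the butyrate made by gut bacteria. Most subunits are encoded in the nucleus, and a few core subunits are encoded by mitochondrial DNA, so the complexes are built from both genomes. IL-22 acts on epithelial cells mainly through STAT3, and IL-1b mainly through NF-kB.

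The promoters of 4 of these genes are printed first. Each window runs from 250 bases before to 50 bases after the gene's start (RefSeq, GRCm38.p6, plus strand, 5′ to 3′). Atp5sl (chr7:25619164-25619463), Atp5s (chr12:69724695-69724994) and Cox7a1 (chr7:30183921-30184220) are shown because their counts were called lower in at least 1 comparison, and Sdhb (chr4:140961021-140961320) because it is a core subunit whose counts were not. Capitals mark the letters of a motif that was searched for: AAGATGGC (YY1) in Atp5sl, and GCATGCGC (the NRF1 core) and then CCGGAA (the core bound by ETS factors such as GABPA) in Sdhb. The windows of Atp5s and Cox7a1 held none of the motifs searched. Cox6a2, which was also called lower, had no match in the RefSeq table.
Atp5sl: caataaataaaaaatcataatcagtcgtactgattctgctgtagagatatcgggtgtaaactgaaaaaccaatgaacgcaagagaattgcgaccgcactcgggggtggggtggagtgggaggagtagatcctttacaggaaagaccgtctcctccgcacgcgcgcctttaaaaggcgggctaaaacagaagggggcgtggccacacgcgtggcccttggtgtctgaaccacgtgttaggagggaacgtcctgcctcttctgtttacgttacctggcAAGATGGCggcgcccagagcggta
Atp5s: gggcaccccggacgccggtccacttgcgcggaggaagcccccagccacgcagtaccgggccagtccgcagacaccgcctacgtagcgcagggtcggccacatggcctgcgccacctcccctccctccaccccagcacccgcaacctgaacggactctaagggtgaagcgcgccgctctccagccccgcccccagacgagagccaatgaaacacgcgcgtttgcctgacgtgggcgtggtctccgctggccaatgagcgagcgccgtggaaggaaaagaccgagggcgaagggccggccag
Cox7a1: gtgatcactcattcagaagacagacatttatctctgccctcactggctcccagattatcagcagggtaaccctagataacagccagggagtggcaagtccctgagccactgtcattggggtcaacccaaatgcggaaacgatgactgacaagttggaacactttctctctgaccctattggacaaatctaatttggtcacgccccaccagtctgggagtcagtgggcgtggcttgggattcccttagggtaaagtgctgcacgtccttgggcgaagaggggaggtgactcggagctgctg
Sdhb: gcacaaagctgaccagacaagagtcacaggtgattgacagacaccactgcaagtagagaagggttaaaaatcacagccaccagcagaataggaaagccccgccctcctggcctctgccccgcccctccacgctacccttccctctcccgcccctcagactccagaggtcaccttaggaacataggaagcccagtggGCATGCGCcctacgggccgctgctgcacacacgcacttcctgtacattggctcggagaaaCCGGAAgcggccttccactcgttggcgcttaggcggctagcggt

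NRF1, GABPA, YY1 and ERRa are textbook regulators of nuclear genes for respiration, and windows were found for 76 of the 94 genes, 73 of them under the same symbol. On either strand, GCATGCGC was found in 12 of 76 windows (15.8%), against 2.8% of the 27025 windows in the table. AAGATGGC was found in 10 of 76 windows (13.2%), against 2.88% of all windows. CCGGAA was found in 26 windows (34.2%, against 15.2%), which include the 5 windows (6.58%, against 4%) with the longer CCGGAAGT. The ERRa letters AAGGTCA were found in 8 windows (10.5%, against 4.66%). The letters of the cytokine-activated factors were rare: TTCCNGGAA (STAT3) was found in 1 window, that of Ndufa8 (1.32%, against 1.15%), and GGGACTTTC (NF-kB) in 1 window, that of Ndufv3 (1.32%, against 0.344%). These are matches of letters only, and no binding was measured.

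Library totals ran from 4703902 to 5804033 counts. Counts were scaled by TMM (trimmed mean of M values, factors 0.957 to 1.04), and a gene was called where edgeR's quasi-likelihood test gave an adjusted p under 0.05 (Benjamini-Hochberg, over the 13987 genes tested). Epithelial transcripts were abundant in every library: the 9 marker genes (Epcam, Cdh1, Krt8 and others) summed to 14076 to 14917 counts. The 8 leukocyte markers summed to 14 to 23 counts in unstimulated libraries, 20 to 37 with IL-22 and 18 to 48 with both cytokines, but to 77 to 268 with IL-1b. With IL-1b, in replicate order, Ptprc had 104, 20 and 12 counts, Laptm5 130, 28 and 32, and Cd3e 19, 6 and 2. Unstimulated libraries had at most 2, 5 and 1 counts of these genes. Itgam had 14, 21 and 30 counts with IL-1b and 13, 17 and 5 unstimulated. Cd79a, Lyz2 and Csf1r had 0 to 3 counts in every library. Tyrobp, which marks myeloid and NK cells, was at 0 in all 12 libraries. In bulk RNA, fewer cells of a type and less RNA per cell cannot be told apart. IL-1b replicate 1 held the highest leukocyte sum, and results are given without it where that matters.

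Of the 94 genes, 88 had enough counts to test. The 6 others are forms known mainly from other tissues or a pseudogene. Cox7b2 and Cox8c, testis forms, were at 0 in every library. Cox4i2, a form known from lung and hypoxia, had 1 count in IL-22 replicate 1 and 1 in IL-1b+IL-22 replicate 3, and Cox8b, a heart and muscle form, had 1 in unstimulated replicate 3 and 1 in IL-1b replicate 1. Atp5c1-ps was also below the filter. Cox6b2, a testis form of the subunit COX6B, had 8, 7 and 13 counts in the unstimulated libraries, 2, 4 and 4 with IL-22, 1, 7 and 3 with IL-1b, and 1, 1 and 2 with both. Its 4 counts in all with both cytokines against 28 unstimulated gave a ratio of 0.159 (95% counting interval 0.0405 to 0.455). Intervals of this kind cover counting error only.

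Counts per transcript length had a median of 95.1 CPM per kb over the 88 genes, and the assembly factors stood lower. The counts of the densest genes levelled off, as described further on, so this scale may understate differences between them. The level was taken as CPM, the count scaled by the effective library size, per kb of transcript, the median length of the gene's protein-coding transcripts. In unstimulated colonoids the levels of Sdha and Sdhd, the flavoprotein and a membrane anchor of succinate dehydrogenase, were 110.5 ± 3.78 and 126 ± 7.28 CPM per kb (SD, n = 3). Cox6a1 and Cox8a, small subunits of complex IV, were at 137 ± 7.92 and 123 ± 2.19, and Atp5a1 and Atp5c1, the alpha and gamma subunits of the ATP synthase, at 135 ± 4.88 and 128 ± 6.66 CPM per kb. Uqcr10 and Uqcrfs1 of complex III, the latter the Rieske iron-sulphur protein, were at 141 ± 10.6 and 107 ± 3.55. Ndufa1 and Ndufa2, accessory subunits of complex I, were at 85.9 ± 6.7 and 90.6 ± 4.78. Among the assembly factors, Ndufaf1 was at 20.6 ± 2.32 and Ndufaf3 at 23.9 ± 1.89 CPM per kb. Neighbours in this order such as Ndufa1 and Ndufa2, or Cox6a1 and Atp5a1, differed by less than their SDs.

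**Figure D1:**
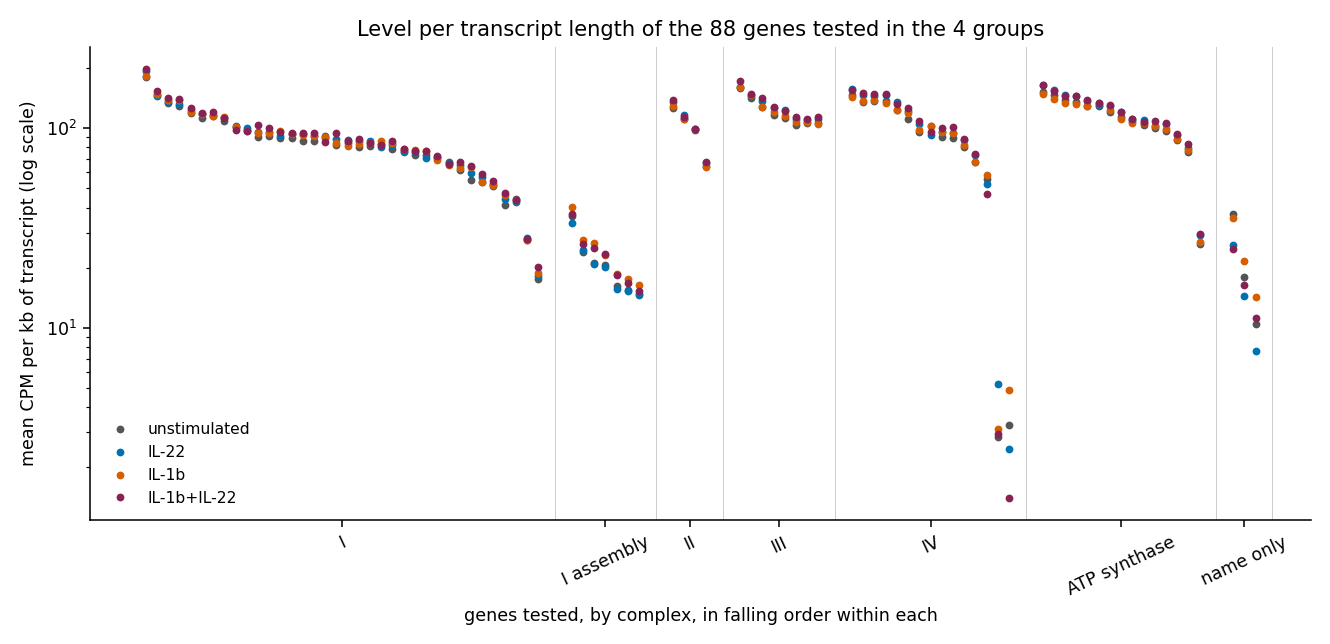
Mean level of each of the 88 tested genes in the 4 groups, in CPM per kb of transcript on a log axis, arranged by complex. Subunit genes of complexes I to IV and of the ATP synthase lie mostly within one band around the median of 95.1. Counts levelled off in this range, so the band need not be a shared level of expression. Genes below the band in every group include the assembly factors of complex I and the scarce forms Cox6a2 and Ndufa4l2. They also include the ATP synthase gene Atp5g1, at 26.3 unstimulated and 29.3 with IL-22.

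With IL-22, 1 of the 88 genes fell and none rose by the test, while 11.9% of all genes tested rose and 10.6% fell. The gene that fell was Atp5sl (chr7:25619414-25625551, plus strand, mm10). It had 393, 418 and 359 counts in the unstimulated libraries, 225, 225 and 285 with IL-22, 368, 377 and 399 with IL-1b, and 252, 259 and 197 with both cytokines. Every library that received IL-22 lay below every library that did not. The change was a log2 fold change of -0.51 ± 0.08 (SE) with IL-22 (edgeR adjusted p = 0.00069). With both cytokines it was -0.57 ± 0.08 against unstimulated (adjusted p = 0.000226) and -0.51 ± 0.08 against IL-1b alone (adjusted p = 0.000659). IL-1b alone gave -0.06 ± 0.08 (adjusted p = 0.797). Atp5sl was called in all 3 of these IL-22 comparisons under each of the 24 alternatives tried. The comparisons share control libraries and are not independent of each other.

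No gene that encodes a subunit rose or fell with IL-22 by the test. At an unadjusted p under 0.05 there were 4 of the 88 (4857 of all 13987), and DESeq2 called the same number, 0 higher and 1 lower. The 95% interval of the log2 fold change lay within -0.5 to 0.5 for 83 of the 88, and within -0.25 to 0.25 for 53. These intervals hold for the counts. For the dense genes, whose counts levelled off as described further on, they need not bound the change in RNA. The catalytic beta subunit gene of the ATP synthase, Atp5b, had 1568, 1600 and 1573 counts unstimulated and 1526, 1533 and 1553 with IL-22. Cox8a had 375, 369 and 364 unstimulated and 357, 357 and 369 with IL-22. The log2 ratio of the raw means was -0.04 for Atp5b and -0.03 for Cox8a, nearer to 0 than that of the library totals (-0.10).

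The medians of the log2 fold changes with IL-22 were near 0 in every complex. They were 0.05 for the 36 complex I genes, 0.06 for complex II, 0.09 for complex III, 0.10 for complex IV and 0.09 for the ATP synthase, against 0.00 for all genes tested. The assembly factors of complex I had a median of -0.02. Of the 88 values, 69 were above 0, including 15 of 15 for the ATP synthase and 8 of 8 for complex III. This sign rests on the scaling: on raw counts the mean with IL-22 was lower than unstimulated in 87 of 88 genes, and the median of the 88 was -0.02 in place of 0.06 once a smooth trend of fold change on counts per exon base had been subtracted. Summed over its genes, complex I stood at 2790 ± 170.2 CPM unstimulated and 2854 ± 119 with IL-22 (SD, n = 3), and the ATP synthase at 1753 ± 72.3 and 1870 ± 114. The difference for complex I was smaller than the SD of either group, and that for the ATP synthase was larger than both SDs, while none of the 15 ATP synthase genes passed the test.

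**Figure D2:**
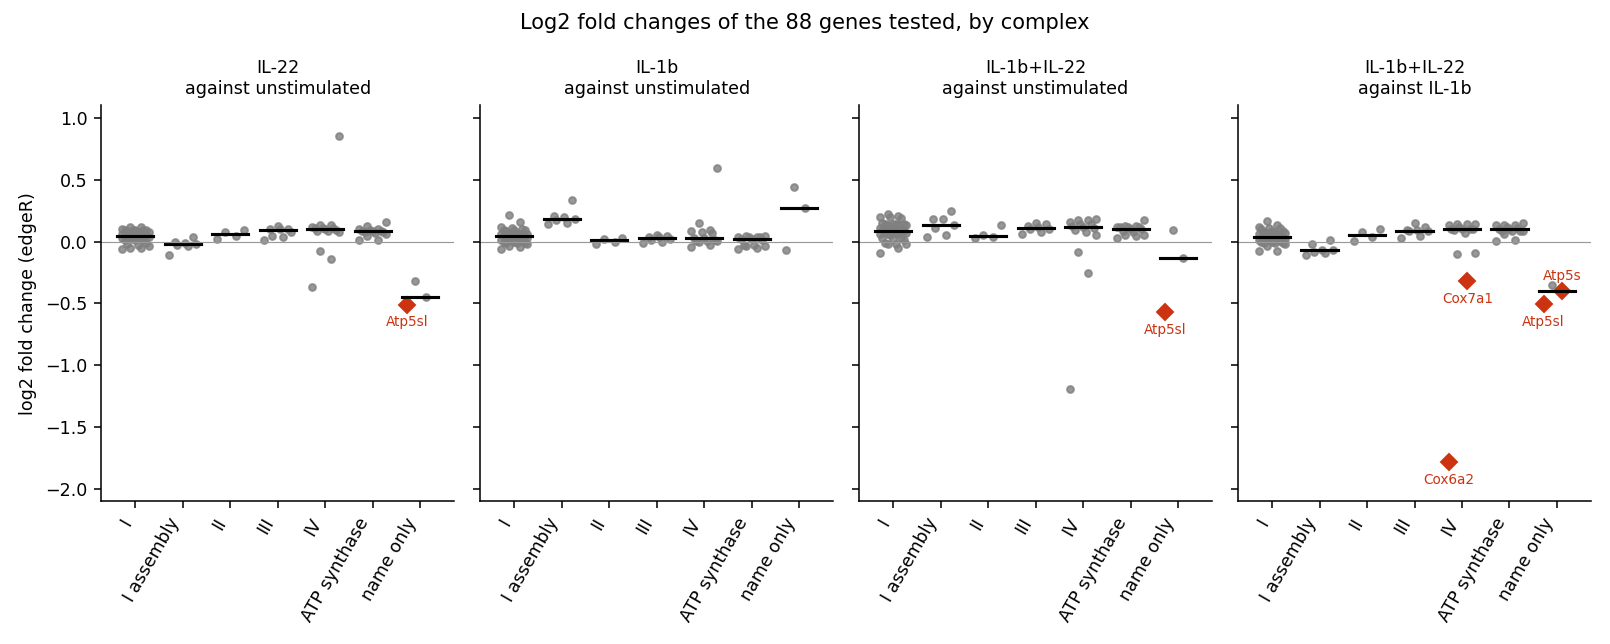
Log2 fold change of each of the 88 tested genes, by complex, in 4 comparisons (IL-22, IL-1b and both against unstimulated, and both against IL-1b); black bars are medians and red diamonds are called genes. Most points lie close to 0, and the called ones are all below it.

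With IL-1b alone, none of the 88 genes rose or fell by edgeR's test or by DESeq2's. The background was also low, at 0.0715% of all genes higher and 0% lower, so the absence of calls is not particular to this family. An unadjusted p under 0.05 was found for 4 of the 88 (1338 of all genes). The 7 assembly factors of complex I had log2 fold changes of 0.14 to 0.34 (median 0.18), none of which passed the test. The highest was Ndufaf5, which modifies a complex I subunit, with 123, 135 and 143 counts unstimulated and 163, 161 and 196 with IL-1b. The groups do not overlap, but the value of 0.34 ± 0.12 did not pass (adjusted p = 0.415). The medians of the other complexes lay between 0.01 and 0.05. Summed, the assembly factors stood at 221 ± 15.1 CPM unstimulated, 217 ± 13.7 with IL-22, 253 ± 9.32 with IL-1b and 244 ± 17.6 under both (SD, n = 3).

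With both cytokines against unstimulated, Atp5sl fell and no other member passed the test, against 13.7% of all genes higher and 13.3% lower. DESeq2 also called 0 higher and 1 lower, and 14 of the 88 had an unadjusted p under 0.05 (5531 of all genes). The count of genes called higher depended on single libraries. Leaving out IL-1b+IL-22 replicate 2 gave 6 (Ndufa4, Ndufaf4, Ndufb3, Ndufb6, Ndufs4 and Uqcrc2, chosen after their values were seen), leaving out unstimulated replicate 2 gave 2, and leaving out IL-22 replicate 3 gave 1. Ndufs4, an accessory subunit of complex I, was at 0.21 ± 0.08 (adjusted p = 0.0587) with all libraries. The medians by complex were 0.09 for complex I, 0.13 for its assembly factors, 0.05 for complex II, 0.11 for complex III, 0.12 for complex IV and 0.10 for the ATP synthase. Of the 88 log2 fold changes, 77 were above 0, but 75 of the 88 had a lower raw mean count. Without that trend the median of the 88 was 0.01 in place of 0.10, and that of complex II was -0.05. Both cytokines against IL-22 alone gave 0 calls in either direction by edgeR and by DESeq2, with 2 of the 88 at an unadjusted p under 0.05 (1440 of all genes) and a background of 0.0643% higher and 0.0143% lower.

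Both cytokines against IL-1b alone gave the most calls: 4 of the 88 fell and none rose, with 13.3% of all genes higher and 13% lower. DESeq2 called 2 of them, and 10 of the 88 had an unadjusted p under 0.05 (5316 of all genes). Beside Atp5sl, the genes were Cox6a2, Cox7a1 and Atp5s. No widely expressed core subunit was among them: Cox6a2 and Cox7a1 are the heart and skeletal muscle forms of 2 complex IV subunits, and Atp5s encodes factor B. The effective libraries with IL-1b (5315650 to 6013100) were all larger than those with both (4661250 to 5101620). All 88 genes had a lower raw mean with both, so a gap in raw counts between these groups does not by itself show a change.

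Cox6a2 (chr7:128205435-128206387, minus strand) was scarce. It had 8, 11 and 17 counts unstimulated, 5, 7 and 13 with IL-22, 23, 13 and 20 with IL-1b, and 4, 5 and 5 with both. In raw counts, all libraries with both cytokines lay below all with IL-1b alone. The log2 fold change was -1.78 ± 0.41 (edgeR adjusted p = 0.00594), and the summed counts of 14 against 56 gave a ratio of 0.285 (95% counting interval 0.146 to 0.518). It was called under each of the 24 alternatives. Against unstimulated, both cytokines gave -1.19 ± 0.44 (adjusted p = 0.0608), which passed without unstimulated replicate 1. Its share of the COX6A pair (Cox6a1 and Cox6a2) was 2.72 ± 0.99% unstimulated, 2.02 ± 0.98% with IL-22, 4.08 ± 1.12% with IL-1b and 1.12 ± 0.15% under both (SD, n = 3), so Cox6a1 made nearly all of the pair in every group. Exons of Cox6a2 overlap Itgad on the opposite strand, which had 0 to 4 counts in any library, and the counting strand is not given in the sources used here.

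Cox7a1 (chr7:30184144-30186078, plus strand) had 128, 144 and 127 counts unstimulated, 113, 108 and 117 with IL-22, 146, 133 and 150 with IL-1b, and 108, 96 and 97 with both. The raw counts with IL-1b and under both do not overlap, and the scaled levels were 58.3 ± 2.43 and 46.6 ± 3.45 CPM per kb (SD, n = 3). The log2 fold change of both against IL-1b was -0.32 ± 0.10 (edgeR adjusted p = 0.0329), but it passed in only 14 of 24 alternatives, over which the adjusted p ran from 0.0109 to 0.163. It was lost in DESeq2 (adjusted p = 0.131), without a filter (0.13), with the replicate block (0.0565) and without any one of the 3 IL-1b libraries. It was also lost without IL-1b+IL-22 replicate 2 or 3. Cox7a1 made 12.2 ± 0.53% of the counts of the set Cox7a1, Cox7a2 and Cox7a2l in unstimulated libraries, 11.9 ± 0.16% with IL-22, 12.6 ± 0.23% with IL-1b and 10.3 ± 0.40% under both.

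Atp5s (chr12:69724950-69744660, plus strand) had 142, 162 and 150 counts unstimulated, 108, 97 and 121 with IL-22, 190, 154 and 219 with IL-1b, and 131, 108 and 133 with both. In raw counts, the libraries with both cytokines lay below those with IL-1b alone, and those with IL-22 below the unstimulated ones. The log2 fold change of both against IL-1b was -0.40 ± 0.12 (edgeR adjusted p = 0.027). It passed in 18 of 24 alternatives (adjusted p from 0.0154 to 0.118) and was lost in DESeq2 (0.0524) and without IL-1b replicate 1, IL-1b replicate 3 or IL-1b+IL-22 replicate 2. With IL-22 against unstimulated it was -0.32 ± 0.13 (adjusted p = 0.0893), and with both against unstimulated -0.13 ± 0.13 (adjusted p = 0.471).

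Counts of some markers of other cell types also differed between the IL-1b libraries and those with both cytokines. The 8 fibroblast and muscle markers summed to 9, 13 and 23 counts in the IL-1b libraries, 1 to 7 with both cytokines, 5 to 10 unstimulated and 3 to 9 with IL-22. With IL-1b, in replicate order, Acta2 had 11, 0 and 1 counts, Myh11 2, 3 and 1, and Des 1, 1 and 1. Pdgfra, which is not a muscle gene, had 3, 3 and 10, and Col1a1 had 6, 1 and 0. The counts of Acta2 thus lay mostly in IL-1b replicate 1. The 3 endothelial markers summed to 26 to 50 counts with IL-1b, 4 to 21 with both, 25 to 39 unstimulated and 5 to 8 with IL-22. Nearly all of these were Pecam1, which leukocytes also express: Cdh5 and Kdr, the defining genes, had 1 count each over the 12 libraries. The part of these cells in the values of Cox6a2, Cox7a1 and Atp5s was not tested. With unstimulated replicate 1 and IL-1b replicate 1 left out together, the genes called lower with both cytokines against IL-1b were 2, Atp5sl and Cox6a2.

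**Figure D3:**
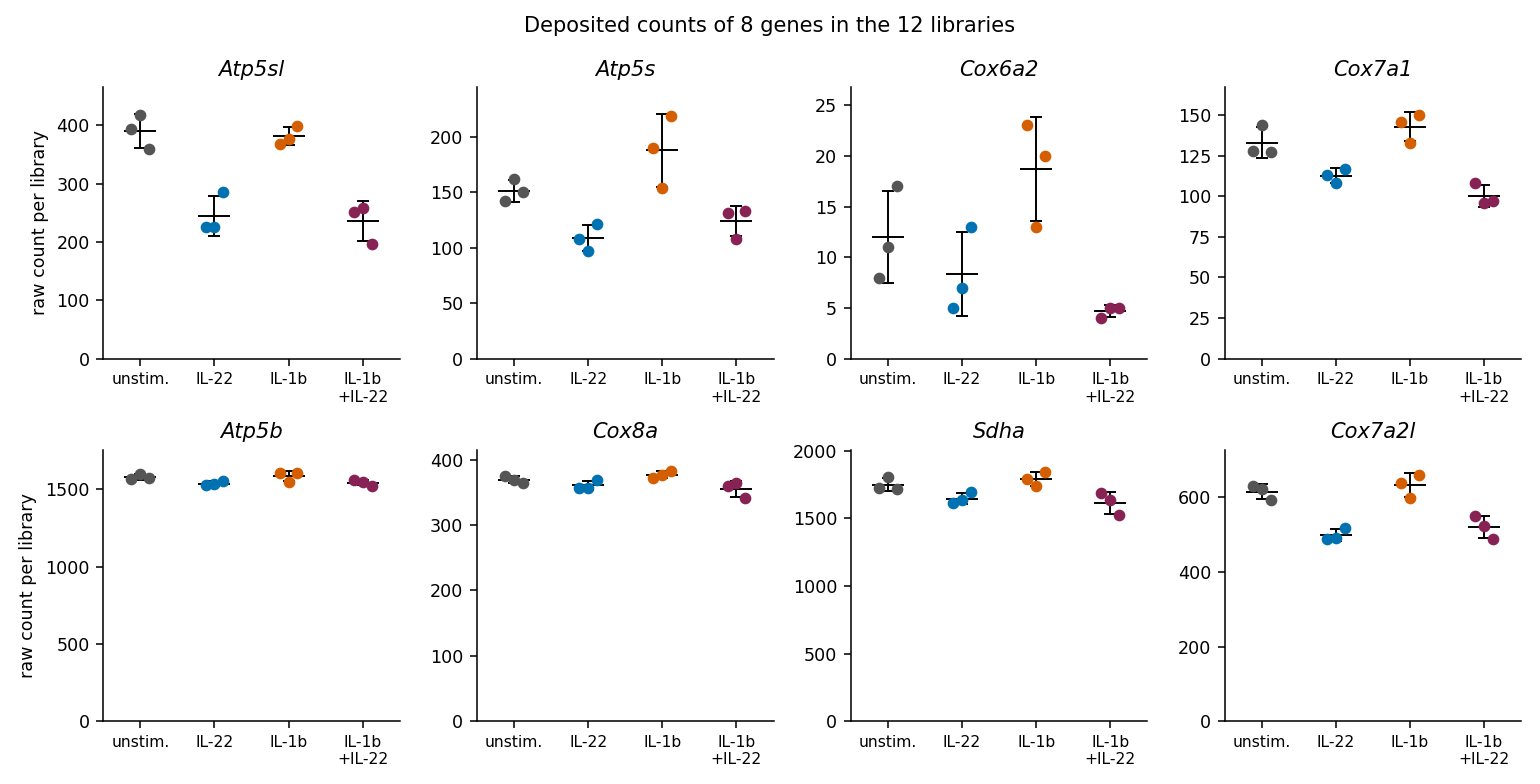
Raw counts in each of the 12 libraries, by group, of Atp5sl, Atp5s, Cox6a2, Cox7a1, Cox7a2l, Atp5b, Cox8a and Sdha; points are libraries, horizontal bars are means and error bars are SDs of 3 libraries, and every axis starts at 0. Atp5sl separates the libraries with IL-22 from those without it, while Atp5b and Cox8a stay nearly level across all 12.

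Among the remaining isoform sets, none of the members passed the test. Cox7a2l had 630, 623 and 592 counts unstimulated, 489, 490 and 518 with IL-22, 639, 599 and 660 with IL-1b, and 549, 523 and 488 with both. Every library with IL-22 lay below every library without it, yet the log2 fold change with IL-22 was -0.14 ± 0.06 (edgeR adjusted p = 0.104), where the raw means had a log2 ratio of -0.30. It was called lower in 4 of the 24 alternatives, by total counts, with the trend subtracted, and with positions counted once over either length (counts n over L bases replaced by -L ln(1 - n/L)). Its share of the COX7A set was 56.3% unstimulated, 52.7% with IL-22, 55.7% with IL-1b and 53.6% under both, and that of Cox7a2 was 31.5%, 35.4%, 31.7% and 36.1%. The 3 genes for the c subunit of the ATP synthase rotor, Atp5g1, Atp5g2 and Atp5g3, held 30.1%, 25% and 44.9% of their summed counts unstimulated and 31.4%, 24.1% and 44.5% with IL-22. Ndufa4l2, known as a hypoxia-induced relative of Ndufa4, had 12, 8 and 23 counts unstimulated and 8, 46 and 15 with IL-22, so 1 library held most of its counts in that group. Its exons overlap Shmt2, which had 473, 430 and 387 counts unstimulated and 527, 529 and 622 with IL-22. Whether reads of Shmt2 entered the counts of Ndufa4l2 was not tested. Uqcrh-ps1 had 9 to 25 counts per library and was not called.

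The 4 genes of succinate dehydrogenase, which links the chain to the citric acid cycle, did not change by the test in any of the 6 comparisons. Sdha had 1728, 1804 and 1716 counts unstimulated, 1613, 1633 and 1693 with IL-22, 1789, 1736 and 1842 with IL-1b, and 1685, 1634 and 1525 with both. Sdhb, the iron-sulphur subunit, had 577, 629 and 614 unstimulated and 545, 530 and 576 with IL-22. Its log2 fold change with IL-22 was 0.02 ± 0.06 (edgeR adjusted p = 0.849), and those of Sdha, Sdhc and Sdhd were 0.08 ± 0.05, 0.04 ± 0.06 and 0.10 ± 0.06. Summed, the 4 genes stood at 716 ± 31.1 CPM unstimulated, 750.5 ± 44.8 with IL-22, 719 ± 21.8 with IL-1b and 747 ± 15.4 under both (SD, n = 3).

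The interaction, which asks whether the response to IL-22 differs between colonoids with and without IL-1b, had no calls among the 88 or among all genes (0% in each direction), and DESeq2 called none of the 88. At an unadjusted p under 0.05 there were 1 of the 88 and 705 of all genes. The lowest adjusted p among the 88 was that of Cox6a2, with an interaction of -1.41 ± 0.59 (adjusted p = 0.941).

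Counts of the densest of these genes levelled off. For random draws the true variance of a count is at least its mean, though a variance estimated from 12 counts can fall below it. Of the 84 genes of the family with a mean of 100 counts or more, 29 varied less than their mean across all 12 libraries (34.5%), against 3.04% of the 9413 genes with such a mean. This variance also holds changes between the groups, so part of the contrast may restate that few of the family changed. In complex IV the variance was below the mean in 10 of 15 genes and in the ATP synthase in 8 of 15, but in none of the 4 complex II genes and none of the 7 assembly factors. Cox8a ran only from 341 to 382 counts over the 12 libraries, with a variance over mean of 0.333, and Cox6b1 from 344 to 381, with 0.399. The long and also abundant Sdha had 4.74, and Atp5sl, which was called, 20.4.

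The genes of the family followed library size only in part. The slope of the log2 count on the log2 effective library size within groups, which is 1 where counts scale with depth, had a median of 0.40 over the 84 genes and of 1.01 over all genes with that mean. Their median count per transcript base was 0.498, against 0.160. Among all genes tested, the slope fell from 1.25 below 0.1 counts per base to 0.42 at 0.5 or more. For the family members it was 0.68 below 0.1 and 0.39 at 0.5 or more. Between, at 0.1 to 0.3 and 0.3 to 0.5, members had 0.62 and 0.36, and all genes 1.07 and 0.71. Variance was below the mean in 0% of members and 5.62% of all genes below 0.1. At 0.3 to 0.5 it was so in 40.7% and 5.99%, and in the densest class in 39.0% and 19.4%. In that class all genes had a median log2 fold change of 0.11 with IL-22, and the 41 genes of this family in it had 0.08; below 0.1 counts per base, all genes had -0.11 and the 8 of this family -0.03. In the densest class 29.1% of all genes and 0 of the 41 family members were called with IL-22, and in the sparsest 20.4% and 0 of 8. The interquartile range of the log2 fold changes of all genes was 0.15 in the densest class and 0.49 in the sparsest, and that of the family members 0.07 and 0.34. What made the counts level off was not tested.

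**Figure D4:**
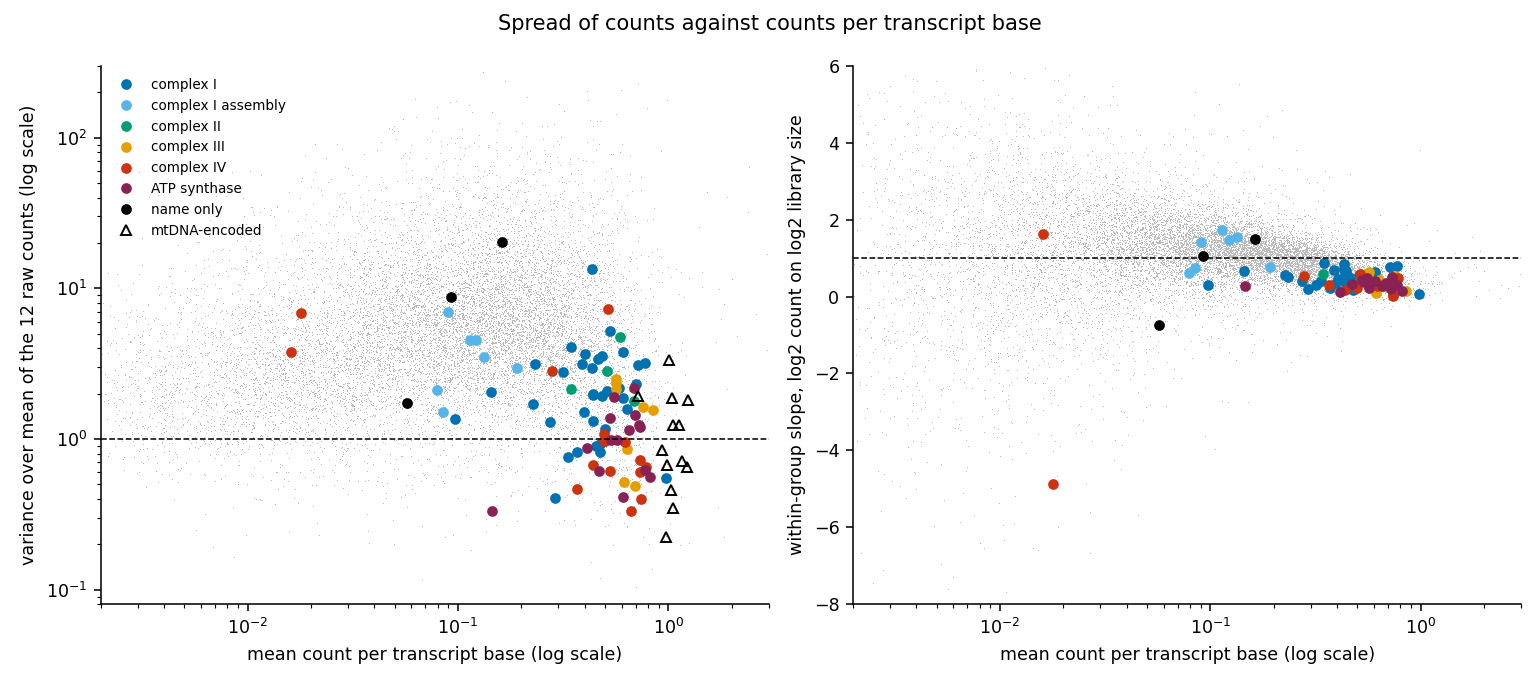
Left, variance over mean of the raw counts across 12 libraries against count per transcript base (both log axes, dashed line at 1); right, slope of log2 count on log2 effective library size within groups against count per transcript base. Grey dots are all genes tested, coloured points the 88 family members by complex, and open triangles, on the left, genes of mitochondrial DNA; some grey dots fall outside the axes. Members of complex IV and of the ATP synthase crowd at high count per base with variance over mean near or below 1.

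The 13 subunit genes of mitochondrial DNA varied little too. Together they had 11668 to 12626 counts per library: 12626, 12025 and 11887 unstimulated, 11781, 11668 and 12326 with IL-22, 12118, 12301 and 12384 with IL-1b, and 12041, 11703 and 11726 with both. In these raw sums the IL-1b libraries lay above those with both cytokines, and every other pair of groups overlapped. The IL-1b libraries were also all larger in effective size than those with both, and after scaling the median difference had the opposite sign (below). Their counts per base ran from 0.721 (ND3) to 1.24 (ATP6). ND1, a core subunit of complex I with 957 bases, had 971 to 1048 counts in all libraries. None was called in any comparison by edgeR. The median log2 fold change was 0.13 with IL-22, where 5 had an unadjusted p under 0.05, and -0.02 with IL-1b. With both against IL-1b it was 0.14, where 5 had an unadjusted p under 0.05. The median with IL-22 was -0.02 with the trend subtracted, and 0.25 with 11 genes called higher when TMM rested on genes under 0.1 count per transcript base. Most of these transcripts carry short polyA tails in mammals, ND6 being the known exception.

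The sign of the family's small shifts with IL-22 moved with the scaling. The effective libraries with IL-22 were smaller than the unstimulated ones by a log2 ratio of -0.16, and those with both smaller than those with IL-1b by -0.19, so genes whose raw counts held level were scaled up. By total counts alone the median of the 88 was 0.00 with IL-22, with complex I at -0.01 and complex IV at 0.04. With TMM estimated only on genes under 0.1 count per transcript base, the median was 0.17 and 10 genes were called higher, but the median of all genes also moved, to 0.11. Relative to that shift the family stood 0.06 above all genes, as in the scaling by all genes. Atp5sl was called lower with IL-22 in all of these scalings.

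**Figure D5:**
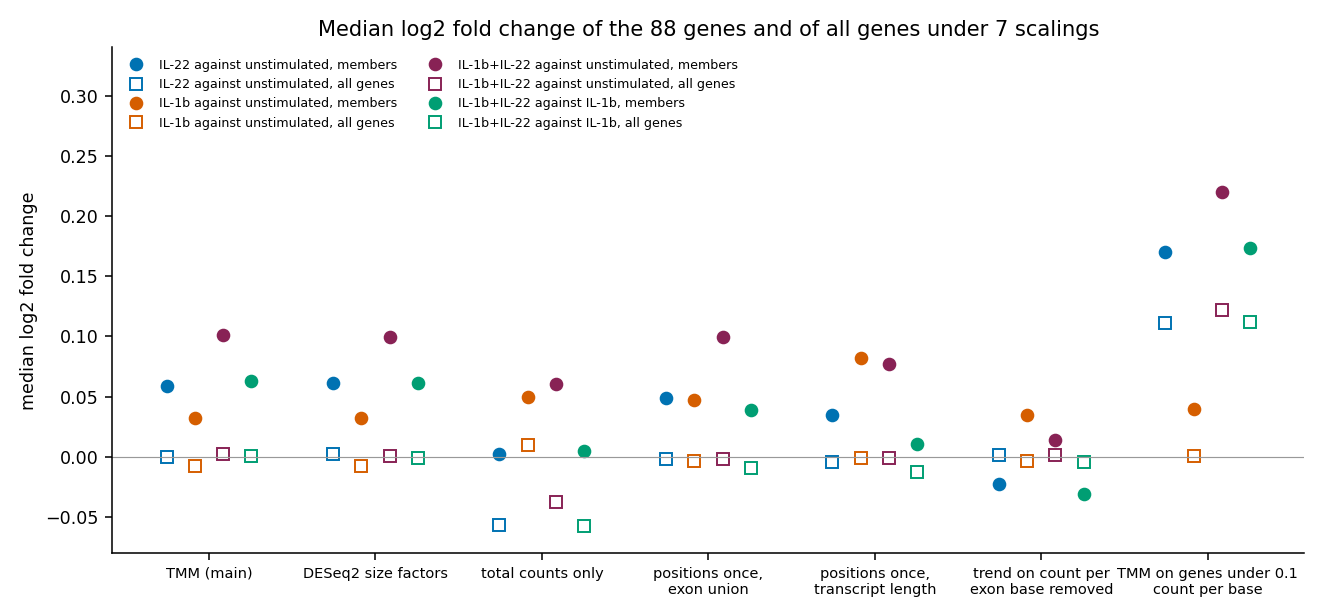
Median log2 fold change of the 88 family members (filled) and of all genes tested (open) under 7 scalings, in 4 comparisons. The members lie slightly above all genes under most scalings, near or below 0 once the trend with counts per exon base is subtracted, and both move up together when TMM rests on sparse genes.

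Among the regulators of the chain, Ppargc1a and Ppargc1b fell with IL-22. They encode PGC-1 coactivators of mitochondrial biogenesis. Ppargc1a had 711, 649 and 607 counts unstimulated, 250, 285 and 428 with IL-22, 604, 644 and 696 with IL-1b, and 296, 269 and 193 with both. Every library with IL-22 lay below every library without it. The log2 fold change was -0.88 ± 0.13 with IL-22 (edgeR adjusted p = 0.000374) and -1.22 ± 0.14 with both against unstimulated (adjusted p = 2.27e-05). Ppargc1b had 994, 997 and 718 counts unstimulated and 456, 454 and 728 with IL-22, where replicate 3 overlaps the lowest unstimulated library (-0.57 ± 0.14, adjusted p = 0.0107). Ppargc1a was called in these comparisons under each of the 24 alternatives. The call of Ppargc1b with IL-22 was lost in 4, among them without IL-22 replicate 1 or 2 or unstimulated replicate 2.

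Of the 18 regulators of mitochondrial biogenesis tested, 2 rose and 4 fell with IL-22, 1 rose and 4 fell with both against unstimulated, and 2 rose and 5 fell with both against IL-1b. Over all genes 11.9% rose and 10.6% fell with IL-22, 13.7% and 13.3% with both against unstimulated, and 13.3% and 13% with both against IL-1b, so the counts higher are near or below those shares. Polrmt, the mitochondrial RNA polymerase, fell with IL-22 by 0.45 ± 0.11 on the log2 scale (edgeR adjusted p = 0.00949), a call lost without IL-22 replicate 2. Hif1a, which turns on glycolytic genes when oxygen is low, rose by 0.38 ± 0.06 (adjusted p = 0.000801). Esrra, Nrf1 and Gabpa, which encode the factors ERRa, NRF1 and GABPA whose letters were searched for above, were not called in any comparison. Yy1, for the fourth, was called higher with IL-22 (0.19 ± 0.06, adjusted p = 0.0283), with 677, 633 and 617 counts unstimulated and 615, 629 and 717 with IL-22. That call held in 15 of 24 alternatives and was lost by total counts, with the trend subtracted, in DESeq2, and without IL-22 replicate 2 or 3 or unstimulated replicate 2 or 3. Gabpb1, for the partner of GABPA, was called higher only with both against IL-1b (0.33 ± 0.12, adjusted p = 0.0494), which held in 8 of 24 alternatives. Esrrg, for a nuclear receptor related to ERRa, fell by 1.48 ± 0.46 with both against unstimulated (adjusted p = 0.029), from 25, 19 and 16 counts to 10, 3 and 6. Tfam, which packages and transcribes mitochondrial DNA, fell by 0.21 ± 0.07 with both against IL-1b (adjusted p = 0.0397). These calls held in 18 and 14 of the 24 alternatives.

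Of 17 glycolysis genes tested, 7 rose and 1 fell with IL-22, 6 rose and 1 fell with both against unstimulated, and 11 rose and 2 fell with both against IL-1b, where 11.9% and 10.6%, 13.7% and 13.3%, and 13.3% and 13% of all genes did. The list had median log2 fold changes of 0.16, 0.13 and 0.19. These counts rest on the scaling: with the trend subtracted they were 1 and 1, 1 and 1, and 2 and 2, and with TMM on genes under 0.1 count per transcript base 14 and 1, 13 and 1, and 15 and 2. Hk2, which traps glucose in the cell as glucose 6-phosphate, had 2657, 2399 and 2278 counts unstimulated, 2919, 3006 and 3267 with IL-22, 2200, 2379 and 2453 with IL-1b, and 2964, 3362 and 2951 with both. Libraries with IL-22 lay above all those without it, by 0.49 ± 0.06 for IL-22 against unstimulated (edgeR adjusted p = 6.33e-05). Hk2 was called in all 24 alternatives. Slc2a1, the glucose carrier GLUT1, rose by 0.25 ± 0.07 (adjusted p = 0.0147), a call lost with the trend subtracted and without IL-22 replicate 2 or unstimulated replicate 2. Pfkm, the muscle form of phosphofructokinase, fell: it had 133, 150 and 103 counts unstimulated and 66, 48 and 87 with IL-22 (-0.79 ± 0.16, adjusted p = 0.00261). Ldhb had 8, 8 and 5 counts unstimulated, 1, 5 and 2 with IL-22, 31, 14 and 12 with IL-1b, and 3, 3 and 4 with both. It fell with both against IL-1b (-2.29 ± 0.52, edgeR adjusted p = 0.00511). Whether the cells behind the marker counts given for IL-1b above had a part in this was not tested.

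Of the 41 assembly factors outside the family's names, 2 rose and 2 fell with IL-22, 4 rose and 5 fell with both against unstimulated, and 2 rose and 7 fell with both against IL-1b, where the shares of all genes were 11.9% and 10.6%, 13.7% and 13.3%, and 13.3% and 13%. Sco1, a copper chaperone for complex IV, rose by 0.37 ± 0.07 with IL-22 (edgeR adjusted p = 0.00247). Acad9, an assembly factor of complex I, rose by 0.35 ± 0.08 (adjusted p = 0.00786), called in 23 of 24 alternatives. Lyrm7, which helps insert the Rieske protein into complex III, had 82, 90 and 89 counts unstimulated and 47, 40 and 53 with IL-22, and fell by 0.74 ± 0.15 on the log2 scale (adjusted p = 0.00368). Sdhaf1, an assembly factor of complex II, fell by 0.35 ± 0.11 (adjusted p = 0.0279), called in 16 of 24 alternatives and lost without IL-22 replicate 1 or 2 or unstimulated replicate 2 or 3. The 4 Sdh genes were not called.

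Of the 13 cytochrome c and coenzyme Q genes, 1 rose and 3 fell with IL-22, 2 rose and 1 fell with both against unstimulated, and 0 rose and 2 fell with both against IL-1b. For this list and the next 2, the shares of all genes called higher and lower were again 11.9% and 10.6%, 13.7% and 13.3%, and 13.3% and 13%. Cycs, which encodes cytochrome c, rose by 0.25 ± 0.06 with IL-22 (edgeR adjusted p = 0.0134), a call lost by total counts, with the trend subtracted and without unstimulated replicate 1. Coq10a, a coenzyme Q binding protein, had 253, 253 and 228 counts unstimulated and 121, 170 and 201 with IL-22 (-0.42 ± 0.13, adjusted p = 0.0306), a call lost without IL-22 replicate 1 or unstimulated replicate 1 or 2. Of the 18 citric acid cycle genes, 0 rose and 1 fell with IL-22 and with both against unstimulated, and 1 rose and 1 fell with both against IL-1b. Of 12 uncoupling and oxygen-radical genes, 1 rose and 1 fell with IL-22. Higd1a, a small inner membrane protein that binds complex IV, rose from 684, 745 and 718 counts unstimulated to 836, 776 and 819 (0.34 ± 0.06, adjusted p = 0.00176) and was called in all 24 alternatives. The gene that fell was Slc25a4, the heart and muscle ADP/ATP carrier, at -0.31 ± 0.10 (adjusted p = 0.0482), called in only 9 of 24 alternatives. None of the genes of these 6 lists was called by edgeR with IL-1b alone, with both against IL-22 or in the interaction, and no list had more than 4 genes at an unadjusted p under 0.05 there.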

How the data were processed

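The authors deposited raw counts, whole numbers for each gene symbol. The submitters' processing notes name mm10 as the build. How reads were aligned, counted, assigned by strand and annotated, and whether duplicates were removed, is not given in the sources used here. RNA was extracted with miRNeasy columns and DNase and prepared with a TruSeq stranded kit, per the labels' protocols.

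Low counts were removed by filterByExpr (edgeR 4.0.16, R 4.3.3) and libraries scaled by TMM. A quasi-likelihood model with a mean for each group was fitted to the 12 libraries together (8 residual degrees of freedom), and p-values were adjusted by Benjamini and Hochberg's method over all 13987 genes tested. SEs, which are approximate, divide the log2 fold change by root F. Intervals use a t distribution with 8 degrees of freedom. Alternatives were DESeq2 1.42.0, other scalings and filters, a replicate block, corrections for levelled counts and leaving out libraries. The edgeR steps were tested on simulated counts that held no levelling off, so that test does not cover the dense genes. The correction for positions counted once was tested on simulated draws of known depth. Precision is set by totals of 4703902 to 5804033 counts per library.

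Positions and lengths are from GENCODE M21. Of the symbols, 26762 matched directly, 514 through a RefSeq synonym and 13 by position on the mitochondrial genome, and 8580 had no match. Exons of 29 members overlap another gene on the opposite strand and 4 on the same strand, so their counts are uncertain.

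Genes were named by rule: called members, the 2 densest per complex by count per exon base, the Sdh genes, isoform sets, and up to 4 called genes per list and comparison. Atp5b, Ndufaf5, Ndufs4, ND1, ND3 and ATP6 were chosen after their values were seen. Members and lists were chosen with earlier results of these data known, so no test over a list was made.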

Additional observations from a re-analysis of the deposited data

How the results depend on the processing

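No value changed sign while called, and of the named members' values 3946 kept their side of the threshold, 40 gained a call and 16 lost one. Low counts limit Cox6a2, Cox6b2 and Ndufa4l2, and levelled counts limit the dense subunit genes. The 3 alternatives added after seeing the data were TMM on sparse genes, positions counted once over transcript length, and leaving out both replicate 1 libraries of unstimulated and IL-1b. The cause of the changes below was not tested.

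Members called higher with IL-22 were 10 with TMM on sparse genes and 0 to 2 over the fits leaving out 1 library (2 without IL-22 replicate 3, Atp5b and Atp5g1). Members called lower were 2 by total counts only, with the trend removed, and with positions counted once over either length. The median was -0.0225 with the trend removed and 0.17 with TMM on sparse genes. With both against unstimulated, members called higher were 1 with the trend removed, 1 with positions counted once over transcript length, 39 with TMM on sparse genes, and 0 to 6 leaving out 1 library. Members called lower were 2 without a filter, 3 with the trend removed, 2 without both replicate 1 libraries, and 1 to 2 leaving out 1 library (2 without unstimulated replicate 1). The median was 0.0138 with the trend removed and 0.22 with TMM on sparse genes. With both against IL-1b, members called higher were 21 with TMM on sparse genes. Members called lower were 2 there, 2 in DESeq2, 2 without both replicate 1 libraries, and 2 to 4 leaving out 1 library (2 without IL-1b replicate 1 or 3, or IL-1b+IL-22 replicate 2). The median was -0.0306 with the trend removed and 0.17 with TMM on sparse genes.

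Over all genes, IL-22 gave 1661 higher and 1483 lower calls, but 3061 and 927 with TMM on sparse genes and 1206 and 1991 by total counts. Both against unstimulated gave 1920 higher, 3838 with TMM on sparse genes, and 1495 against 2262 lower by total counts. Both against IL-1b gave 1860 and 1822, 3432 and 1206 with TMM on sparse genes, and 1391 and 2387 by total counts. Without a filter, IL-1b gave 156 higher and 56 lower in place of 10 and 0, both against IL-22 gave 120 and 216 in place of 9 and 2, and the interaction 25 and 25. DESeq2 gave 22 and 10, and 27 and 60, for the first 2 of these, and 4 lower interactions. Leaving out 1 library gave 1104 to 1779 higher and 888 to 1571 lower with IL-22.

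Same-numbered libraries correlated at -0.188 to 0.179 in their deviations from group means, and 2 of 12 libraries correlated best with their own number. Weak correlations cannot exclude a shared mouse or day. The labels do not say what a number marks, so the main fit held no replicate block. With the replicate block, members called were 0 higher and 1 lower with IL-22, 0 and 1 with both against unstimulated, 0 and 3 with both against IL-1b, and 0 elsewhere.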
